A study of Rattus norvegicus with 12 samples.

Results

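The cytosolic ribosomal protein genes were followed across rat small hepatocytes on 3 coatings and mature hepatocytes. A gene was a member when the scanner files name one of its non-control probes Rpl or Rps with a number, or Rplp0, Rplp1 or Rplp2. This gave 83 genes of 35850 gene names on the array, 52 of the large ribosomal subunit and 31 of the small subunit, on 201 probes. The name rule uses no measured value, but it was chosen with earlier results of these data known.

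Small hepatocytes are progenitors that can form hepatocytes. Here they came from F344 rats of a DPPIV+ strain, were grown without serum in DMEM/F12 medium with 10 ng/mL EGF, 10 mM nicotinamide, dexamethasone and insulin-transferrin-selenium, and were enriched magnetically for CD44+ cells on day 9. They were expanded on Matrigel, an extract rich in basement membrane proteins, and at passage 2 were kept for 3 h on a coating. The coating was laminin-111 in group LN111, laminin-511 in group LN511 and Matrigel in group Mat. The control, MH, was mature hepatocytes freshly isolated from livers of the same strain. Each of the 4 groups had 3 single-colour arrays, and the labels do not say that these came from separate animals or cultures, so p-values measure a spread between samples that may be technical. MH cells were not cultured, so culture, sort, passage and cell type cannot be told apart in any comparison with MH.

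A cytosolic ribosome joins a small subunit, which reads the mRNA, to a large subunit, which forms the peptide bonds. Each subunit holds ribosomal RNA and many different proteins, most of them present in a single copy, and their mRNAs are among the most abundant in most cells. Most of these mRNAs start with a C followed by a stretch of pyrimidines, the 5′ terminal oligopyrimidine tract, through which the mTOR pathway and Larp1 set how fast they are translated.

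Transcript starts of the members are shown because this tract is the sequence feature the genes are known to share. In the RefSeq promoter table (GRCr8), 66 of the 83 members had an entry. A tract was counted when the annotated first base was C and opened an unbroken run of at least 5 bases of C or T on the gene's strand. It was present in 24 of the 66 members (36.4%), in 17 of 42 large subunit genes (40.5%) and in 7 of 24 small subunit genes (29.2%). Of all 21851 protein-coding promoters in the table, 550 (2.52%) had it, as did 2 of 62 mitochondrial ribosomal protein genes (3.23%). The windows below run from 30 bases before the annotated start to 12 bases from it, 5′ to 3′ on the gene's strand, with the tract in capitals. An annotated start can differ from the start used in these cells, and the absence of a tract says only that these letters are not at that base.
Rpl10 (chrX:157205820-157205861, plus strand): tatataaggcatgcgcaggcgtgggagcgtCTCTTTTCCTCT
Rpl37a (chr9:81748061-81748102, plus strand): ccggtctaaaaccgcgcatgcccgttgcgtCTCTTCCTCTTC
Rplp1 (chr8:71290861-71290902, minus strand): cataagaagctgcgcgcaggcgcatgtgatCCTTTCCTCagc
Rps18 (chr20:4933715-4933756, plus strand): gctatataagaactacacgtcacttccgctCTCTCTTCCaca
Rpl22 (chr5:168117931-168117972, plus strand): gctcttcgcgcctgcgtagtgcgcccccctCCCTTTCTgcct
Rpl22l1 (chr2:113683166-113683207, plus strand): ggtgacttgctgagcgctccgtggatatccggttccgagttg
Rpl7l1 (chr9:21695688-21695729, plus strand): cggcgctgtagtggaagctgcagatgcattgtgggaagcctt
Rpl10, Rpl37a, Rplp1, Rps18 and Rpl22 opened with tracts of 12, 12, 9, 9 and 8 bases, and the paralogs Rpl22l1 and Rpl7l1 had none.

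Signal was read on all arrays with 0 saturated spots and with 52.2% to 62.7% of the 58717 non-control spots well above background. The 75th percentile of the signal differed between groups: Mat arrays had 1920 to 3090, LN111 arrays 1340 to 2150, LN511 arrays 1130 to 1370 and MH arrays 757 to 961. LN111 replicate 3 had 1126 spots with an outlier mark, against 350 to 499 on the other arrays. Slide 1 held Mat replicates 1 and 2 and the 3 MH arrays, and slide 2 held the other 7. Against MH, with 18944 genes tested, 11 of 12 hepatocyte markers were lower in cultured cells and 10 of 11 progenitor and biliary markers were higher, among them Cd44, the sort marker, whose difference is no finding. Hepatocyte markers Cyp2c13 and Cyp3a2 were not well above background on any cultured array, while Alb, Ttr and Hnf4a were on all 9.

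Markers of other liver cells also differed between the groups. All 12 Kupffer cell and macrophage markers were lower in cultured cells, with a mean log2 level between 0.24 and 0.33 on the MH arrays and between -6.75 and -3.87 on the cultured arrays. Cd5l, Marco, Adgre1 and Timd4 were not well above background on any cultured array. Of the sinusoidal endothelial markers 8 of 10 were lower (mean log2 level -1.13 to -0.77 in MH, -6.74 to -4.46 in cultured cells), and Pecam1, Lyve1, Plvap and Oit3 were not well above background there. Erythroid markers were lower in 3 of 5 and lymphocyte and neutrophil markers in 4 of 5, and of 10 stellate cell and fibroblast markers 3 were higher and 1 was lower. The part of these cells in the results on ribosomal proteins was not tested.

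Of the 83 members, 81 were tested, 50 of the large and 31 of the small subunit, and each of these 81 was well above background on all 12 arrays. They were bright, with a median over members of 5.18 for the mean log2 level in cultured cells, where 0 is the array's 75th percentile (percentile scaling). The other two were Rpl3l, a paralog of Rpl3 known from muscle, which was not well above background on any array, and Rpl39l, a paralog of Rpl39 known from testis, which was well above background on 1 array each of LN111, LN511 and Mat and on 2 of MH. All 81 passed through every group, so the filter did not select members by direction.

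Cultured cells, taken as the 9 arrays of all coatings, were compared with MH first, and the direction for most members depended on how arrays were scaled. With percentile scaling, 55 of 81 members were lower in cultured cells and 3 were higher at a Benjamini-Hochberg adjusted p under 0.05 (limma), whereas with quantile normalization 79 were higher and 1 was lower, and with no scaling 65 were higher and 0 were lower. The median log2 difference of the members was -0.43 with percentile scaling, 0.81 with quantile normalization and 0.61 with no scaling. Over all genes tested it was -0.18, 0.18 and 0.86 under the same settings, and 30.8% of genes were called higher and 42% lower with percentile scaling. Of the 18944 genes tested, 7902 were called higher and 6180 lower with quantile normalization, and 10883 higher and 3058 lower with no scaling. With normexp background correction before percentile scaling, the members' median was -0.37, with 3 higher and 47 lower. Over all genes the median was -0.40, with 3551 higher and 9728 lower. Thus the members' median lay below the all-gene median by 0.25 with percentile scaling or none, above it by 0.63 with quantile normalization and within 0.03 of it with normexp. The split of calls over all genes moved as well, from 42.3% higher with percentile scaling to 56.1% with quantile normalization and 78.1% with no scaling.

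**Figure D1:**
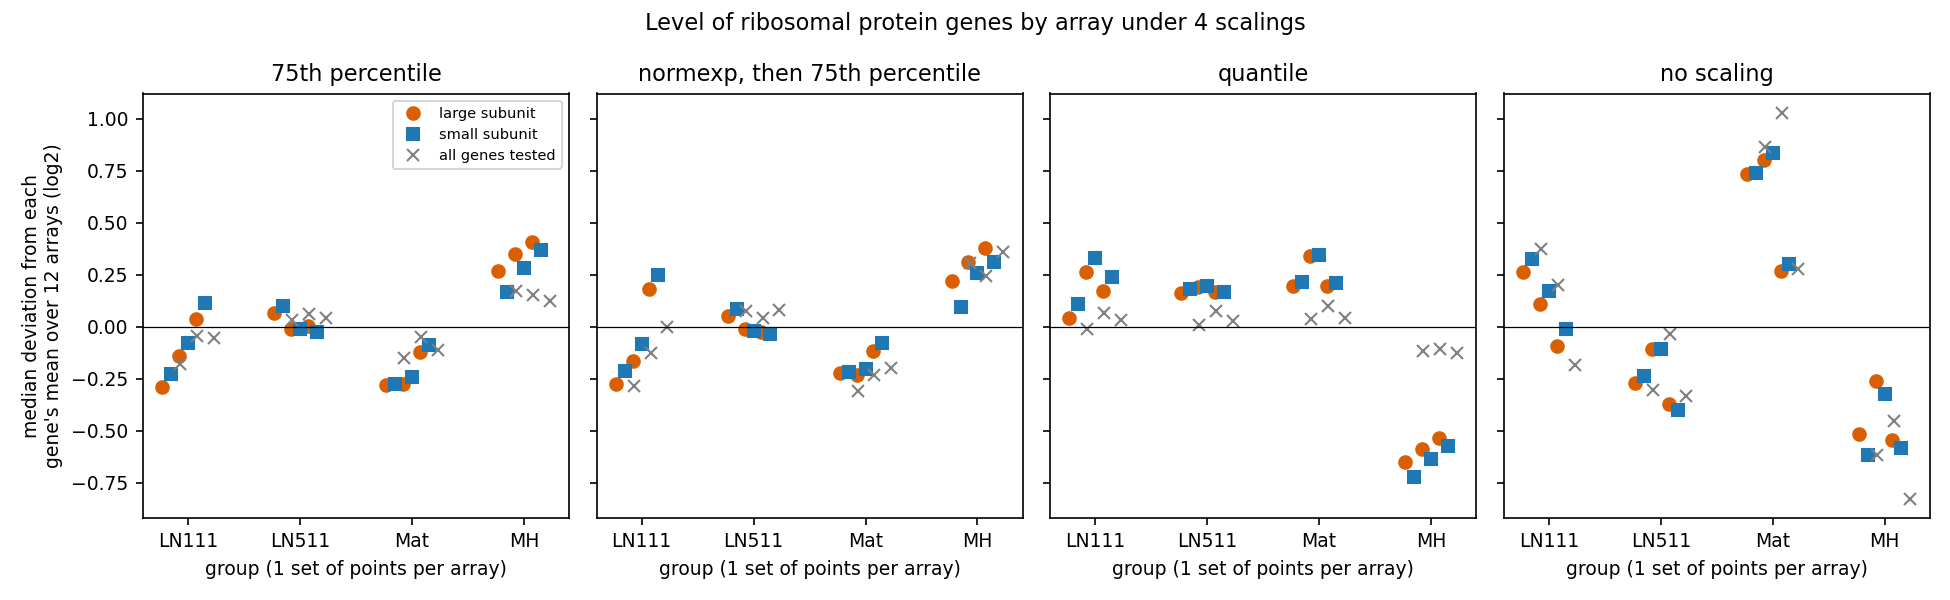
Median deviation of large and small subunit genes and of all genes tested from each gene's mean over 12 arrays (y axis, log2), by array and group, under 4 ways of scaling. The MH arrays lie highest for ribosomal protein genes with percentile scaling, but lowest with quantile normalization, where the members' median difference is 0.81, and low with no scaling; with normexp LN111 replicate 3 (0.25 for small subunit genes) lies above MH replicate 1 (0.10).

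With percentile scaling 69 of 81 members lay within 1.5-fold of MH, and 1 of 81 differed by over 2-fold, whereas the medians of 0.81 with quantile normalization and 0.61 with no scaling are themselves beyond 1.5-fold. On 37 members every cultured array was below every MH array and on 1 every cultured array was above, beside 35.3% and 22.1% of all genes tested.

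The share of an array's summed signal that fell on member probes needs no scaling between arrays. It was 8.09%, 8.78% and 8.92% on the MH arrays, 12.6%, 14.4% and 14.2% on LN111, 14.1%, 13.7% and 13.8% on LN511, and 13.2%, 13.5% and 13.7% on Mat. Every cultured array was above every MH array in this share, including Mat replicates 1 and 2, which share slide 1 with MH. Large subunit probes held 5.04% to 5.52% in MH and 7.67% to 8.69% in cultured cells, and small subunit probes 3.06% to 3.39% and 4.97% to 5.74%. With 1 probe per tested gene, the share was 5.62% to 6.24% in MH and 8.49% to 9.75% in cultured cells. A share of the total also moves with every other gene in it, so it gives no level per cell, and in bulk RNA fewer cells of a type and less RNA per cell cannot be told apart.

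**Figure D2:**
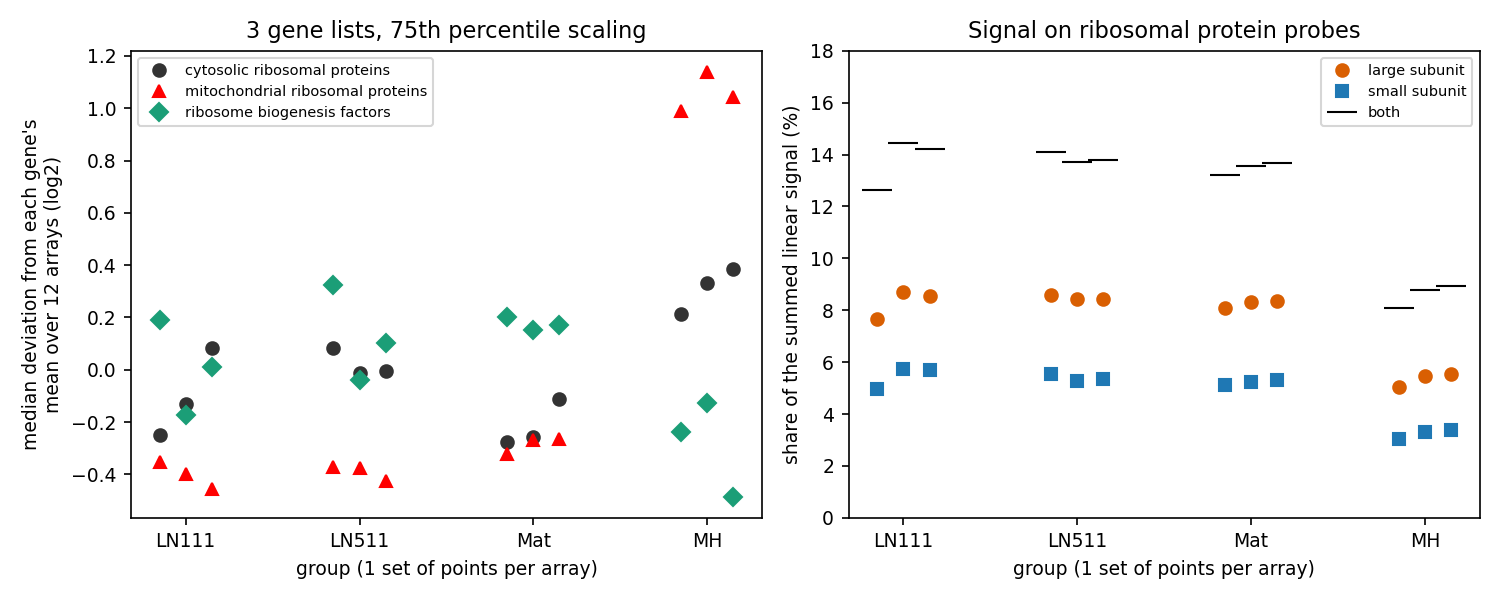
Left, the median deviation of cytosolic ribosomal protein, mitochondrial ribosomal protein and ribosome biogenesis genes (log2, percentile scaling, where the direction for cytosolic genes is opposite to that with quantile normalization or no scaling). Right, the percent of summed linear signal on cytosolic ribosomal protein probes, which is 8.09% to 8.92% on MH arrays and 12.6% to 14.4% on cultured arrays; each point is 1 array.

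Large and small subunit genes were set side by side next. The median difference was -0.48 over 50 large subunit genes (2 higher, 36 lower) and -0.37 over 31 small subunit genes (1 higher, 19 lower) with percentile scaling, but 0.79 and 0.85 with quantile normalization and 0.56 and 0.67 with no scaling. Within an array the median deviation of large subunit genes minus that of small subunit genes ran from -0.079 to 0.030 in cultured cells and from 0.035 to 0.101 in MH. The MH arrays lay above the cultured arrays in this balance with percentile scaling, and also with quantile normalization (0.04 to 0.07 against -0.07 to 0.00) and with normexp (0.05 to 0.12 against -0.08 to 0.01). With percentile scaling the groups nearly met, and the difference was not tested.

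Rplp0, Rplp1 and Rplp2 form the lateral stalk of the large subunit, which recruits the elongation factors. Rplp0 had log2 levels of 6.86, 6.93 and 7.01 in MH, and its lowest, median and highest in cultured cells were 6.10, 6.42 and 6.72. With percentile scaling all 9 cultured arrays lay below MH. Rplp1 spanned 5.81 to 6.61 in cultured cells (median 6.27) against 6.70, 6.69 and 6.88 in MH, and Rplp2 spanned 5.62 to 6.04 (median 5.76) against 6.20, 6.33 and 6.38, so neither overlapped. The differences were -0.51 ± 0.11 for Rplp0, -0.49 ± 0.12 for Rplp1 and -0.50 ± 0.11 for Rplp2 (SE of the fit; limma adjusted p 0.0014, 0.0042 and 0.0018) with percentile scaling, but 0.93, 0.91 and 0.76 with quantile normalization and 0.53, 0.56 and 0.54 with no scaling. With percentile scaling the 3 differences lay within 1 SE of each other.

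Among the other large subunit genes, Rpl10 stood lowest with percentile scaling apart from its paralog. Rpl10 joins the large subunit late in its assembly. Its levels were 5.51, 5.60 and 5.60 in MH and 4.42 to 5.06 in cultured cells (median 4.55), with no overlap. The difference was -0.96 ± 0.13 (limma adjusted p 6.6e-05) with percentile scaling, and 0.24 with quantile normalization and 0.09 with no scaling. Rpl18 had 5.54, 5.63 and 5.56 in MH and 4.64 to 4.98 in cultured cells (median 4.74), a difference of -0.81 ± 0.10 with percentile scaling that turned to 0.37 with quantile normalization and 0.23 with no scaling. Rpl35, a protein at the exit of the peptide tunnel, differed by -0.76 ± 0.11, turning to 0.65 and 0.28, and Rpl41, the shortest ribosomal protein, by -0.70 ± 0.11, turning to 0.84 and 0.34. Rpl21 and Rpl14 differed by -0.69 ± 0.11 and -0.64 ± 0.09 with percentile scaling, and by 0.63 and 0.55 with quantile normalization. Every cultured array was below every MH array for Rpl35, Rpl41, Rpl21 and Rpl14 with percentile scaling. Rpl3, which lies near the peptidyl transferase centre, did not pass (0.14 ± 0.11, limma adjusted p 0.25).

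Rpl5 and Rpl11 bind 5S ribosomal RNA and, when free of the ribosome, bind Mdm2, the ubiquitin ligase of p53. Rpl5 spanned 5.33 to 5.81 in cultured cells (median 5.50) against 5.63, 5.82 and 5.66 in MH, so its groups overlapped, and its difference of -0.16 ± 0.09 did not pass (limma adjusted p 0.14). Rpl11 spanned 5.03 to 5.39 (median 5.18) against 5.35, 5.60 and 5.67, overlapping at 1 MH array, with a difference of -0.36 ± 0.10 (adjusted p 0.0082) with percentile scaling. With quantile normalization these values were 1.08 and 0.86, and with no scaling 0.88 and 0.68.

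In the small subunit, Rps21 had the largest difference below MH with percentile scaling. It had 6.38, 6.39 and 6.52 in MH and 5.64 to 5.91 in cultured cells (median 5.72), a difference of -0.66 ± 0.09 (limma adjusted p 6.8e-05) that turned to 0.62 with quantile normalization and 0.38 with no scaling. Rps6, the substrate of the S6 kinases, had 4.52, 4.77 and 4.67 in MH and 4.44 to 4.88 in cultured cells (median 4.60). Its groups overlapped with percentile scaling, at -0.03 ± 0.11 (adjusted p 0.81), while its difference was 1.08 with quantile normalization and 1.01 with no scaling. Rps27a, made as a fusion with ubiquitin, did not pass with percentile scaling (-0.37 ± 0.16, adjusted p 0.054) and differed by 0.86 and 0.67 with the other two scalings.

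Rps16, on the head of the small subunit, was 1 of the 3 members that were higher in cultured cells with percentile scaling as well. It had 4.41, 4.52 and 4.78 in MH and 4.74 to 5.21 in cultured cells (median 4.86), so that 1 MH array reached the cultured range. The difference was 0.30 ± 0.12 (limma adjusted p 0.044), and 1.38 with quantile normalization, 1.34 with no scaling and 0.36 with normexp. Rpl22l1 (0.32 ± 0.13, adjusted p 0.044) and Rpl7l1 (0.45 ± 0.15, adjusted p 0.020) were the others. All 3 calls were marginal. Without MH replicate 1 Rpl22l1 stood at 0.16 (adjusted p 0.27) and Rps16 at 0.22 (adjusted p 0.19), and without MH replicate 3 the adjusted p of Rpl7l1 was 0.077. Without MH replicate 2 the adjusted p was 0.12 for Rps16, 0.088 for Rpl22l1 and 0.059 for Rpl7l1, and with slide as a block it was 0.43, 0.30 and 0.20. Only Mat was on both slides, so the slide block rests on the 3 Mat arrays.

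**Figure D3:**
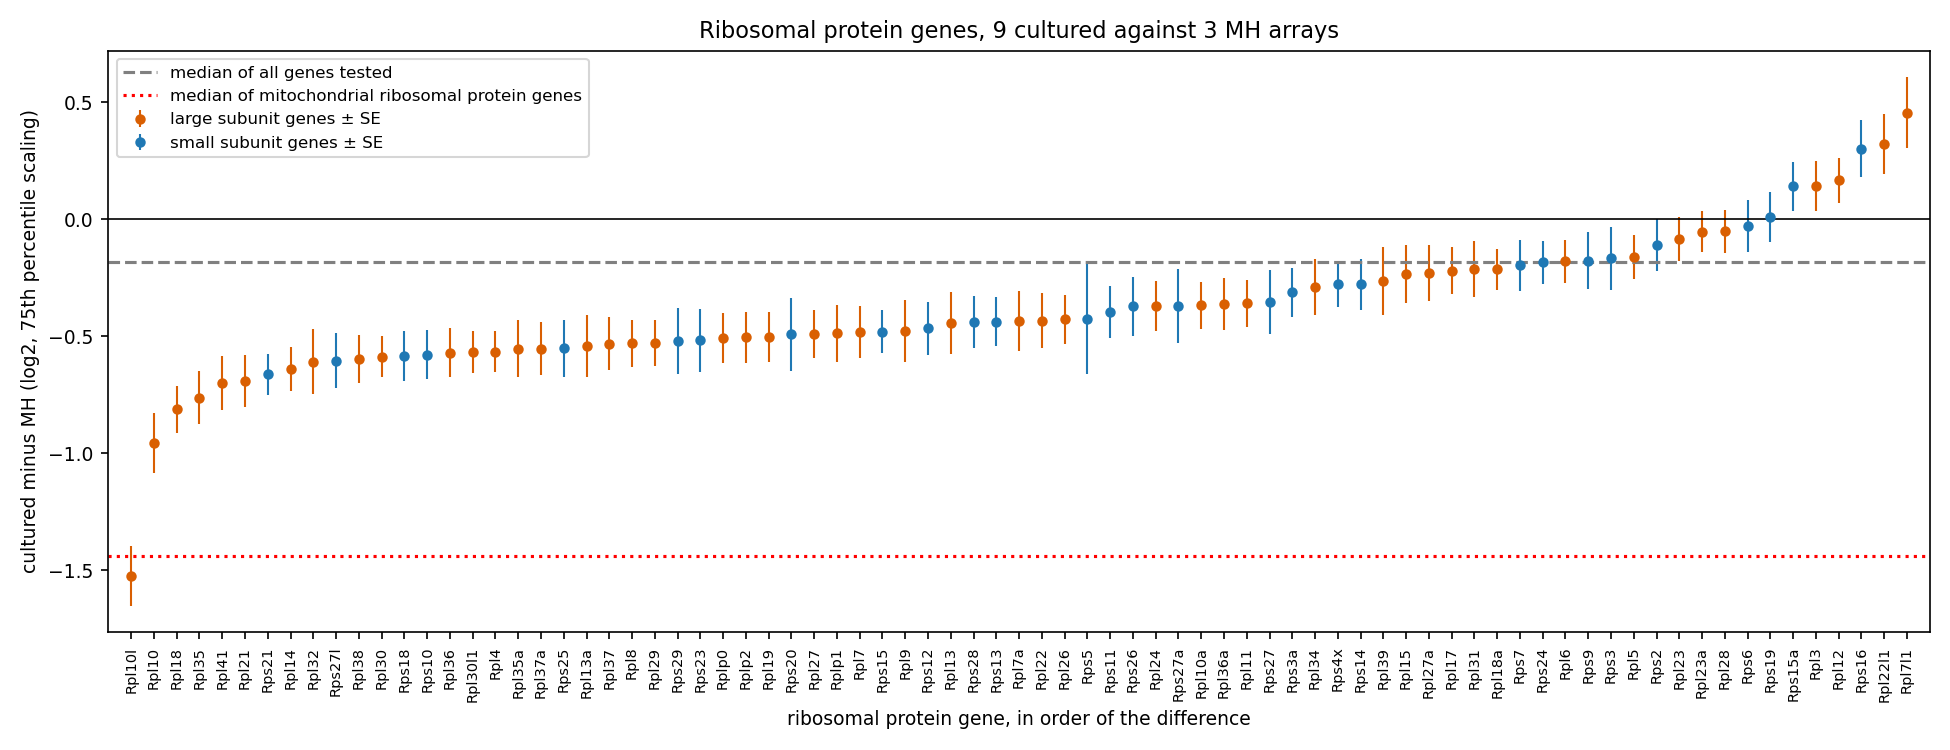
Difference between 9 cultured and 3 MH arrays (y axis, log2, percentile scaling, with SE) for 79 of the 81 tested members in order of that difference, coloured by subunit, with the median of all genes tested and of mitochondrial ribosomal protein genes as lines. Most members lie between 0 and -0.7, Rpl10l lies lowest at -1.52 and Rpl7l1 highest at 0.45. With quantile normalization 79 of all 81 are called higher, beside 7902 of all 18944 genes tested.

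The order of the members can be read as differences within an array, where percentile scaling and no scaling give the same value. Some members are paralogs, genes named as a relative of another ribosomal protein gene, here called the parent gene. Whether each paralog takes the place of its parent in the ribosome was not tested. Of these, 5 were set against their parent gene on each array by an exact two-sided permutation test of 9 against 3 arrays. The smallest p this design allows is 0.0091. The test takes the 9 cultured arrays as independent. Deviations of same-numbered arrays on 2 coatings correlated, with a median of 0.54 over 9 pairs (0.07 to 0.72). If coatings shared cultures, which the labels do not state, these p-values are too small. Adjusted values are over the 5 pairs.

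Rpl22l1 encodes a paralog of Rpl22 that can take its place in the large subunit. The probe that stands for each gene is given by its first 30 of 60 bases. The genes are close relatives, and whether each probe reads only its own gene was not tested.
Rpl22l1: tacgaacttcattatttccaaattagtcaa
Rpl22: gaggaggacgaggattaagacacattggtc
Rpl22l1 had log2 levels of 1.27, 1.62 and 1.91 in MH, 1.67, 1.68 and 1.51 on LN111, 2.24, 2.12 and 2.09 on LN511, and 1.99, 1.97 and 1.99 on Mat. Rpl22 had 5.12, 5.21 and 5.25 in MH and 4.51 to 5.02 in cultured cells. MH arrays thus spanned the whole LN111 range for the paralog, while the parent gene lay lower in every cultured array with percentile scaling (and higher on average, by 0.75, with quantile normalization). Rpl22l1 minus Rpl22 was higher in cultured cells by 0.75 on the log2 scale (1.69-fold, exact permutation p 0.018, adjusted p 0.030), and by 0.81 with normexp (adjusted p 0.015). With quantile normalization the difference was 0.28 and did not pass (exact permutation p 0.15, adjusted p 0.24). LN111 replicate 3 lay among the MH arrays in this measure, at -0.47 from its mean over the arrays, against -0.83 to -0.31 in MH. The second Rpl22l1 probe differed from MH by 0.43 and the 4 Rpl22 probes by -0.52 to -0.28 with percentile scaling.

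Rpl7l1 encodes a relative of Rpl7. Its levels were 0.47, 0.33 and 0.26 in MH and 0.50 to 1.5 in cultured cells (median 0.76), with no overlap and LN111 replicate 3 highest. Rpl7 spanned 5.33 to 5.78 in cultured cells and 5.93 to 6.08 in MH. Rpl7l1 minus Rpl7 was higher in cultured cells by 0.94 (1.91-fold, exact permutation p 0.0091, adjusted p 0.030), while with quantile normalization the difference was 0.21 and did not pass (adjusted p 0.35). The 2 probes named Rpl7l1 went opposite ways, and their first 30 bases show that they read different stretches.
Rpl7l1, brighter probe: gccatgttacaaccgctttgggacctctgg
Rpl7l1, other probe: atccggcagctcaactagagcaggagcagg
The brighter probe, used here, differed from MH by 0.45 and the other by -0.67, both with percentile scaling. With the median of the probes the pair's difference was 0.23.

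Rpl10l, named as a paralog of Rpl10, stood apart from the other members at the low end. Its levels were 1.00, 0.78 and 0.64 in MH and -0.94 to -0.49 in cultured cells (median -0.74), with no overlap between the groups. The difference was -1.52 ± 0.13 (2.87-fold lower, limma adjusted p 2.0e-06) with percentile scaling and -1.07 with quantile normalization, where it was the 1 member called lower. It was -1.32 with normexp and -0.48 with no scaling, where it did not pass (adjusted p 0.12). Rpl10l minus Rpl10 differed by -0.57 (exact permutation p 0.018, adjusted p 0.030), by -1.31 with quantile normalization (adjusted p 0.045) and by -0.37 with normexp (adjusted p 0.015). Its probe has no name in the RefSeq table, so the name is that of the array design.

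The remaining pairs did not pass. Rpl30l1 followed Rpl30 on every array, with a difference of 0.02 (exact permutation p 0.60, SD 0.057 over 9 cultured arrays). Rps27l, a paralog of Rps27 known as a p53 target, differed from MH by -0.60 ± 0.12 itself with percentile scaling and by 0.46 with quantile normalization, and Rps27l minus Rps27 by -0.25 (exact permutation p 0.14, adjusted p 0.17). Rps4x, the X-linked small subunit gene, differed by -0.28 ± 0.10 (limma adjusted p 0.025) with percentile scaling and by 0.69 with quantile normalization. Probes that share near-identical copies of a ribosomal protein gene cannot be told apart by name alone. All 201 member probes list over 1 transcript accession, counted over several databases, so 1 transcript can be counted more than once.

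**Figure D4:**
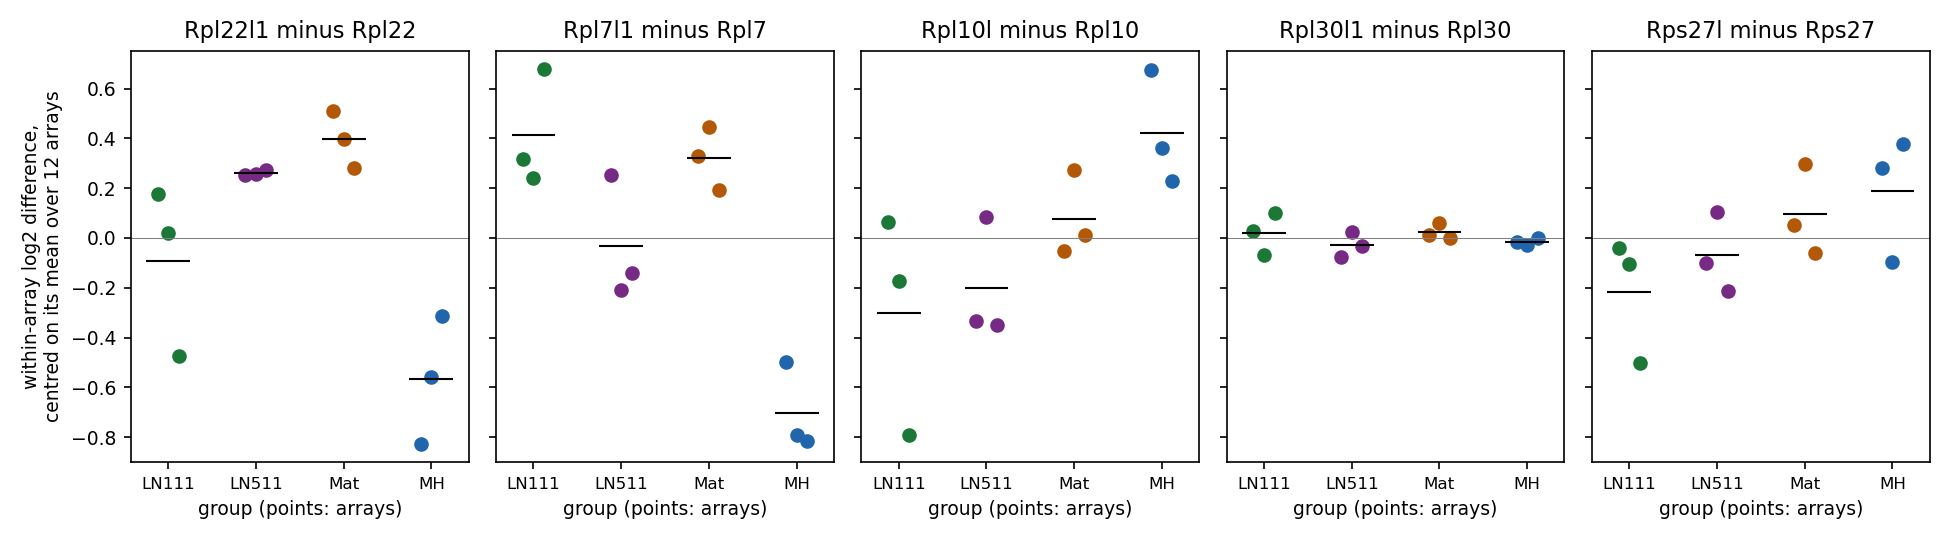
Within-array log2 difference of 5 paralogs from their parent gene (y axis, centred on its mean over 12 arrays, percentile scaling or none), by group; points are arrays and bars group means. Rpl22l1 and Rpl7l1 lie low on the MH arrays and Rpl10l high, with gaps of 0.75, 0.94 and -0.57; with quantile normalization the first pair of gaps falls to 0.28 and 0.21.

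Of 58 members with at least 2 usable probes, 8 had probes that differed from MH in opposite directions with percentile scaling. The range was widest for Rpl15 (-0.23 to 1.09), Rpl7l1 and Rpl37a (-0.55 to 0.55), followed by Rpl36a (-0.72 to 0.05). For Rpl27a (-0.23 to 0.04) and Rpl5 (-0.16 to 0.09) it was narrower. With the median of the probes in place of the brightest one, Rpl15 turned from -0.23 to 0.43.

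Members with and without the tract at their start did not lie far apart. The 24 with it had a median difference of -0.46 (19 lower, 0 higher) and the 41 tested without it one of -0.37 (24 lower, 3 higher), with percentile scaling, under which most members lie below MH, unlike with quantile normalization or none. The members shown above without a tract, Rpl22l1 and Rpl7l1, are among the 3 that were higher. They do not represent the 41 without it, of which 24 were lower with percentile scaling. A run of at least 8 pyrimidines within 10 bases of the start was present in 54.5% of members and 7.19% of all promoters. The letters CCGGAAG were sought on either strand over a wider stretch, from 250 bases before the start to 50 after it. They were present in 21 of 66 members (31.8%) and 2346 of 21851 promoters. Mitochondrial ribosomal protein genes held CCGGAAG as often (33.9%) but such a pyrimidine run in 3.23%.

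Each coating was also set against MH on its own. These comparisons share the 3 MH arrays. With percentile scaling, LN111 had 2 members higher and 48 lower (26.9% and 39.8% of all genes), LN511 had 1 and 31 (31.1% and 36.5%), and Mat had 0 and 58 (26.2% and 41%), whereas with quantile normalization each had 78 or 79 higher and 1 lower. Over all 18944 genes, quantile normalization gave 7176, 7315 and 7183 higher and 5709, 5760 and 5639 lower. The median member difference was -0.42 for LN111, -0.27 for LN511 and -0.57 for Mat with percentile scaling, and 0.79, 0.78 and 0.85 with quantile normalization. The LN111 and LN511 arrays were all on slide 2 and the MH arrays all on slide 1. With slide as a block the members called lower numbered 24 for LN111 and 6 for LN511, and without MH replicate 3 there were 16 for LN511, with percentile scaling in each case. Only Mat was on both slides, so the slide block rests on Mat replicate 3 against Mat replicates 1 and 2. Within slide 1, the 2 Mat arrays there lay below the 3 MH arrays by a median of 0.61 in log2, with 46 members called lower, with percentile scaling. The shares of all genes called with the slide block, without MH replicate 3 and within slide 1 were not counted. Rpl22l1 passed on LN511 (0.56 ± 0.16, limma adjusted p 0.0098) and not on LN111 (0.02 ± 0.16) or Mat (0.39 ± 0.16, adjusted p 0.051). Rpl7l1 passed on LN111 (0.69 ± 0.19, adjusted p 0.0078), with 0.26 ± 0.19 on LN511 and 0.42 ± 0.19 on Mat. Rpl10l passed on each, at -1.59, -1.54 and -1.43, with percentile scaling.

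The coatings were then compared with each other in a fit of the 9 cultured arrays, with 17923 genes tested. A moderated F test over the 3 coatings called 1 member, Rpl22l1 (adjusted p 0.035), beside 12.9% of all genes. With array weights it called 28 members, and the share of all genes called in that fit was not counted. Between LN111 and LN511 the fit called 0 members higher and 1 lower, beside 6.13% and 11.7% of all genes. That member was Rpl22l1, lower on LN111 by 0.53 ± 0.11 in log2 (1.45-fold, limma adjusted p 0.015), with all 3 LN111 arrays (1.51 to 1.68) below all 3 LN511 arrays (2.09 to 2.24). The difference was -0.46 with quantile normalization (adjusted p 0.034), -0.36 with normexp (adjusted p 0.065), -0.04 with no scaling (adjusted p 0.94) and -0.53 within slide 2 (adjusted p 0.070). Rpl24 (-0.36 ± 0.13), Rpl17 (-0.31 ± 0.12) and Rpl26 (-0.32 ± 0.12) followed and did not pass, with limma adjusted p of 0.088, 0.11 and 0.12. All LN111 arrays lay below all LN511 arrays on 24 members and above on 2, beside 24.1% and 10.9% of all genes, and the median member difference was -0.14 with percentile scaling, 0.36 with no scaling and 0.00 with quantile normalization.

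Between LN111 and Mat no member passed, and 0% of all genes were called in either direction. At an unadjusted p under 0.05 there were 2 members higher and 1 lower in limma, beside 1316 and 866 of the 17923 genes tested. Rpl22l1 had the smallest p (-0.36 ± 0.11, adjusted p 0.33), followed by Rplp1 (0.40 ± 0.15), Rps29 (0.40 ± 0.17) and Rps3 (0.38 ± 0.17). The last 3 turned to -0.20, -0.20 and -0.23 with no scaling.

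Between LN511 and Mat the fit called 0 members in limma, beside 7.06% of genes higher and 1.15% lower. At an unadjusted p under 0.05, 23 members were higher and 0 lower, beside 3020 and 894 of the 17923 genes tested. With the replicate number as a block the fit called 2 members higher, Rpl41 (limma adjusted p 0.048) and Rplp1 (0.028), and with array weights it called 45 higher. The shares of all genes called in these alternative fits were not counted, so the shares above do not apply to them. All 3 LN511 arrays lay above all 3 Mat arrays on 57 of the 81 members and below on 0, beside 24.3% and 7.91% of all genes, with percentile scaling. The median member difference was 0.22 with percentile scaling, -0.07 with quantile normalization and -0.88 with no scaling. With no scaling 75 members were called lower, beside 10545 of the 17923 genes tested and an all-gene median of -0.98. Rpl41 was 7.31, 7.22 and 7.22 on LN511 and 6.72, 6.64 and 6.90 on Mat, a difference of 0.50 ± 0.13 (limma adjusted p 0.051), which became -0.28 with quantile normalization. Rplp1 was 6.61, 6.42 and 6.58 on LN511 and 5.89, 5.81 and 6.11 on Mat, a difference of 0.60 ± 0.15 (adjusted p 0.054), which became -0.50 with no scaling. Rps12 (0.48 ± 0.14) and Rplp0 (0.45 ± 0.13) came next and turned to -0.14 and -0.16 with quantile normalization. The Mat array on slide 2 lay nearest to LN511 for these genes, and within slide 2 the median member difference between LN511 and Mat was 0.13.

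**Figure D5:**
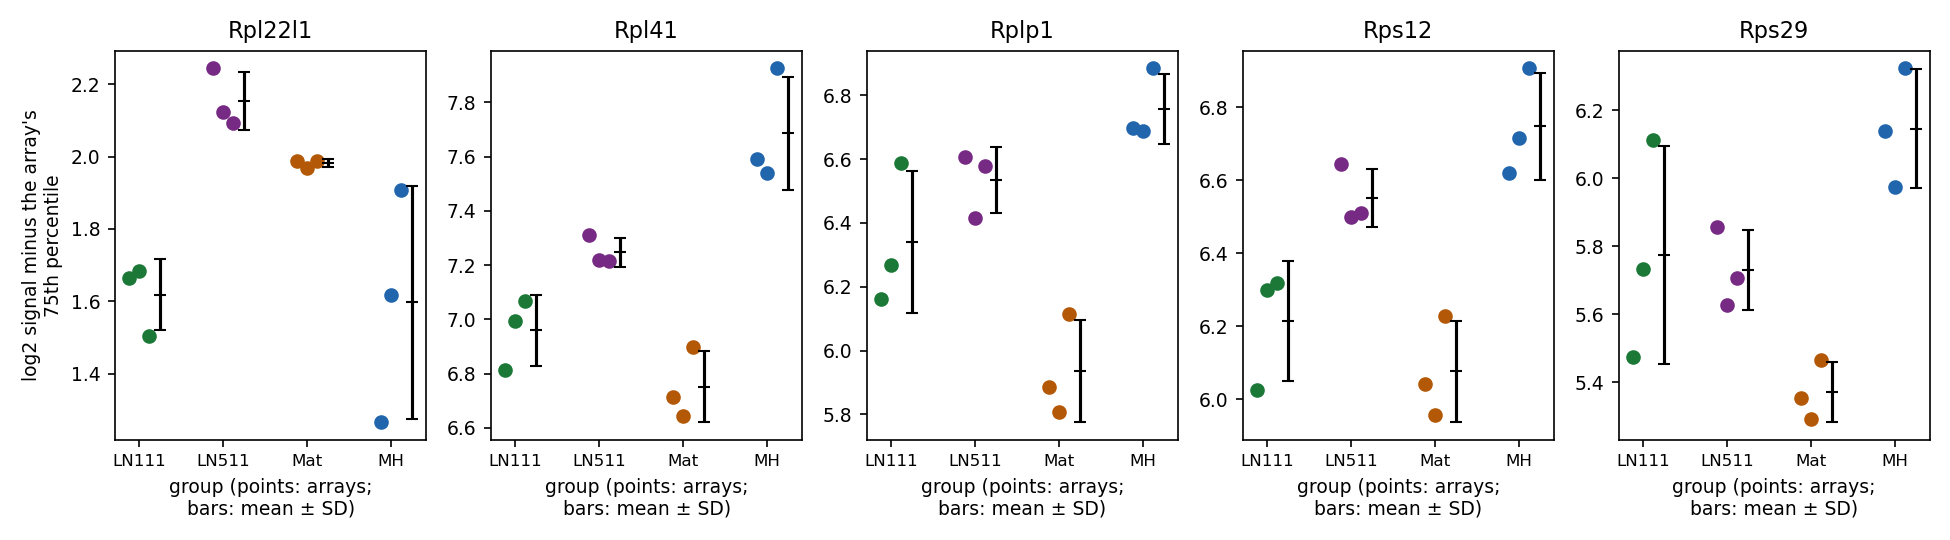
Log2 levels (y axis, percentile scaling) of 5 of the members named for the comparisons between coatings, by group; points are arrays and bars mean ± SD of 3 arrays. Rpl22l1 is lower on LN111 than on LN511 by 0.53, and Rpl41, Rplp1 and Rps12 lie higher on LN511 than on Mat with percentile scaling but lower with no scaling.

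Other genes of ribosome production and translation were read from lists, whose counts in cultured cells against MH stand beside 30.8% of all genes higher and 42% lower with percentile scaling. Mitochondrial ribosomal proteins, which build the separate ribosome of mitochondria, were lower in cultured cells in 68 of 70 tested and higher in 0, with a median of -1.44. Over all coatings together their median was below 0 under every scaling tried. It was -0.73 with quantile normalization, -0.40 with no scaling (19 lower, 2 higher) and -1.32 with normexp. By coating, the median with no scaling was -0.47 on LN111, -0.91 on LN511 and 0.25 on Mat (11 higher, 1 lower). Mrpl40 (-2.42 ± 0.10), Mrps16 (-2.35 ± 0.12), Mrpl15 (-2.15 ± 0.11) and Mrpl27 (-1.75 ± 0.09) had the smallest p. Set against the cytosolic genes on the same array, the median deviation of the cytosolic members minus that of the mitochondrial genes was -0.78, -0.81 and -0.66 in MH and 0.01 to 0.54 in cultured cells, with no overlap.

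Ribosome biogenesis factors, which process ribosomal RNA and assemble subunits in the nucleolus, were higher in 28 of 57 and lower in 6, with a median of 0.37 (0.75 with quantile normalization, 1.42 with no scaling, 0.30 with normexp). Nop56 (1.86 ± 0.23), a core protein of the methylation-guiding snoRNPs, Rrp9 (1.35 ± 0.16) and Nop14 (0.90 ± 0.11) rose, while Nop10 (-1.47 ± 0.11) fell, each in the same direction under every scaling tried. Their median deviation minus that of the ribosomal proteins was -0.87 to -0.45 in MH and -0.07 to 0.48 in cultured cells. With quantile normalization the medians of biogenesis factors and members were close, at 0.75 and 0.81. RNA polymerase I and III genes, which make the ribosomal and transfer RNAs, were higher in 15 of 29 and lower in 4 (median 0.38, and 0.00 with normexp). Polr1g (2.48 ± 0.18) and Taf1d (1.52 ± 0.15) rose and Gtf3a (-1.15 ± 0.10) and Polr3k (-1.34 ± 0.12) fell, with values of -0.11 and -0.30 for the last pair with no scaling.

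Translation elongation and initiation factors, whose mRNAs often carry the same tract, were higher in 6 of 37 and lower in 14, beside 30.8% and 42% of all genes, with a median of -0.24 with percentile scaling that turned to 0.68 with quantile normalization and 0.81 with no scaling. Tpt1 (-1.18 ± 0.11), Naca (-0.74 ± 0.13) and Eif5a (-0.62 ± 0.10) were lower with percentile scaling, and at 0.19, 0.20 and 0.35 with quantile normalization, while Eif1ax (0.98 ± 0.19) was higher under both. Of 25 regulators of ribosome synthesis 6 were higher and 5 lower (median -0.02, and 0.27 with quantile normalization), among them Ddit4 (3.45 ± 0.26), an inhibitor of mTOR, and Mdm2 (2.25 ± 0.19), both higher under every scaling. Cdkn2a was higher as well (4.03 ± 0.31, above background on 2 of 3 MH arrays), and Mycn was not well above background on any MH array. Ribosomal proteins whose symbols do not match the name rule were lower in 2 of 4 with percentile scaling, among them Fau (-1.11 ± 0.09), which stood at 0.09 with quantile normalization. Rpsa and Rack1 did not pass, at -0.29 ± 0.12 and 0.20 ± 0.11.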

How the data were processed

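RNA was hybridised to 12 single-colour Agilent arrays. Each array received Cy3-labelled material made from 100 ng of RNA, per the labels' protocols. Images were read with Agilent Feature Extraction 10.7, per the submitters' processing notes. The values used are the deposited processed signals, an intensity on a linear scale after background subtraction and detrending, per the file headers. The authors' value table held the same intensity with no scaling or centring (largest log2 difference 0.0072, column medians 31.8 to 130.75). An intensity of 1 colour has no direction. The number of arrays limits the precision.

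From this intensity the log2 value minus each array's 75th percentile was computed (percentile scaling). After removal of control and outlier spots, the spots of each probe were averaged. This left 45489 probes, and 109 had no usable spot. Probes were named through the RefSeq gene table by accession (21109), another accession (2631), symbol (5159) or older symbol (344), and 16355 kept the file's name. Of the member probes, 3 have another name and 11 none in that table. Testing was limited to genes with a probe well above background on every array of a fitted group, and the brightest probe stood for its gene. limma 3.58.1 (lmFit, eBayes, R 4.3.3) was used with Benjamini-Hochberg adjustment over all genes tested and a threshold of 0.05, in 1 fit of 12 arrays for comparisons with MH, where cultured is the mean of 3 coating groups, and 1 fit of 9 arrays for coatings. The scripts were tested on simulated data. Promoter windows came from the RefSeq promoter table (GRCr8), and no probe was aligned to a genome.

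Replicate numbers were checked for pairing by the correlation of same-numbered arrays' deviations from their group means. It ran from 0.13 to 0.72 in the 3 pairs of LN511 and Mat, and from -0.66 to 0.53 in their pairs of different number. The labels state no pairing, and the main fits used none, so their p-values are unpaired. Pairing entered only through the replicate block, an alternative fit. The named members were the 8 largest rises (3 passed) and 8 largest falls, the stalk genes, Rps27a, Rps6, Rpl5, Rpl11, paralogs with their parents, members whose probes disagree (some are not reported here), and the 4 smallest p per coating comparison, with up to 4 genes per list. The members and lists were chosen with earlier results of these data known. Alternatives were quantile normalization, no scaling, normexp background, filters on dim probes, the median of probes, slide and replicate blocks, array weights and leaving out each array.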

Additional observations from a re-analysis of the deposited data

Results flagged for a closer look

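Rpl22l1 was the member whose difference from MH was not the same on 2 coatings by a test of the difference itself. It stood at 0.02 ± 0.16 on LN111 and 0.56 ± 0.16 on LN511 against the same MH arrays, and LN111 against LN511 gave -0.53 ± 0.11 (limma adjusted p 0.015). In that comparison 6.13% of all genes were called higher and 11.7% lower. Rpl22l1 did not pass there with normexp, with no scaling, without a filter on dim probes or within slide 2.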

How the results depend on the processing

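The direction of the members against MH rested on the scaling between arrays, and for quantile normalization the cause was not tested. Percentile scaling subtracts 1 value from each array. With no scaling every gene's log2 difference in a comparison therefore shifts by the same amount, set by the arrays' 75th percentiles. The turns with no scaling are thus not separate results on single members. With quantile normalization the members called higher and lower were 79 and 1 for cultured cells, 78 and 1 for LN111, 78 and 1 for LN511, and 79 and 1 for Mat, with median log2 differences of 0.81, 0.79, 0.78 and 0.85. With no scaling they were 65 and 0, 42 and 0, 7 and 1, and 79 and 0, with medians of 0.61, 0.59, 0.24 and 1.04. Over all 18944 genes, in the same order, quantile normalization gave 7902 and 6180, 7176 and 5709, 7315 and 5760, and 7183 and 5639. No scaling gave 10883 and 3058, 9345 and 2866, 7073 and 3784, and 12408 and 1880. Between coatings (LN111 against LN511, LN111 against Mat, LN511 against Mat) the medians became 0.0027, -0.070 and -0.071 with quantile normalization and 0.36, -0.49 and -0.88 with no scaling. With no scaling 0 members were lower on LN111 than on LN511, and 75 were lower on LN511 than on Mat, beside 10545 of 17923 genes. The F test called 22 members with no scaling and 0 with quantile normalization.

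Single members that turned to higher in cultured cells with quantile normalization were Rpl10 0.24, Rpl18 0.37, Rpl35 0.65, Rpl41 0.84, Rpl21 0.63, Rps21 0.62, Rpl14 0.55, Rplp0 0.93, Rplp1 0.91, Rplp2 0.76, Rps27a 0.86, Rps6 1.08, Rpl5 1.08, Rpl11 0.86, Rps27l 0.46, Rpl30l1 0.57, Rps27 0.85, Rpl22 0.75, Rpl7 0.73, Rpl39 0.91, Rpl30 0.53, Rps4x 0.69, Rpl24 0.95, Rpl17 0.93, Rpl26 0.80, Rps29 0.71, Rps3 0.94, Rps12 0.94, Rpl15 0.98, Rpl37a 0.78, Rpl36a 0.79, Rpl27a 1.00. With no scaling they were Rpl10 0.085, Rpl18 0.23, Rpl35 0.28, Rpl41 0.34, Rpl21 0.35, Rps21 0.38, Rpl14 0.40, Rplp0 0.53, Rplp1 0.56, Rplp2 0.54, Rps27a 0.67, Rps6 1.01, Rpl5 0.88, Rpl11 0.68, Rps27l 0.44, Rpl30l1 0.48, Rps27 0.69, Rpl22 0.61, Rpl7 0.56, Rpl39 0.78, Rpl30 0.46, Rps4x 0.76, Rpl24 0.67, Rpl17 0.82, Rpl26 0.61, Rps29 0.52, Rps3 0.88, Rps12 0.58, Rpl15 0.81, Rpl37a 0.49, Rpl36a 0.68, Rpl27a 0.81. Also with no scaling, LN111 against LN511 turned for Rpl24 (0.13), Rpl17 (0.18) and Rpl26 (0.17), LN111 against Mat for Rplp1 (-0.20), Rps29 (-0.20) and Rps3 (-0.23), and LN511 against Mat for Rpl41 (-0.60), Rplp1 (-0.50), Rps12 (-0.62) and Rplp0 (-0.65). With quantile normalization LN511 against Mat turned for Rpl41 (-0.28), Rps12 (-0.14) and Rplp0 (-0.16). Normexp turned Rps6 (0.047) and Rpl30l1 minus Rpl30 (-0.079), the median of the probes turned Rpl7l1 (-0.11), Rpl15 (0.43) and Rpl30l1 minus Rpl30 (-0.0099), and slide as a block turned Rpl3 (-0.084).

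Counts also moved under other settings, for which, apart from normexp, the shares of all genes called were not counted. Normexp gave 2 members higher for Mat against MH, 0 lower for LN111 against LN511, 2 higher for LN511 against Mat and 0 in the F test. Without a filter on dim probes there was 1 higher for cultured cells and 1 for LN111 against MH, 18 lower for LN511 against MH, 0 lower for LN111 against LN511 and 0 in the F test. The strict filter gave 1 higher for Mat. The median of the probes gave 0, 3 and 1 higher for LN111, LN511 and Mat against MH, a median of -0.41 for Mat, and 1 higher for LN511 against Mat. Slide as a block, which for comparisons with MH rests on the Mat arrays alone, gave 0 higher for cultured cells, LN111 and LN511. It gave 24 and 6 lower for LN111 and LN511, medians of -0.56, -0.56 and -0.47, and 0 in the F test. Array weights gave 1 and 2 higher for LN111 and Mat against MH, 45 higher for LN511 against Mat and 28 in the F test. Within slide 2, chosen after seeing the data, 0 were lower for LN111 against LN511 and the F test called 0.

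Leaving out single arrays gave 0 to 3 members higher for cultured cells (0 without MH replicate 2), 1 to 2 for LN111 (1 without LN111 replicate 2) and 0 to 1 for Mat (1 without LN111 replicate 3). It gave 16 to 35 lower for LN511 against MH (16 without MH replicate 3), 0 to 2 higher for LN511 against Mat (2 without LN111 replicate 3) and 0 to 1 in the F test (0 without LN111 replicate 1). Rps6 ran from -0.10 to 0.027, the highest without MH replicate 2. For the pairing by replicate number, the correlation of deviations ran from 0.07 to 0.72 (over 0.1 in 7) over the 9 same-numbered pairs between coatings and from -0.03 to 0.06 over the 9 with MH. With a replicate block, 2 members were higher for LN511 against Mat and the F test called 2. The 81 tested members were well above background on every array, and the precision is limited by 3 arrays per group.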

Other observations

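Probes that the array design names otherwise, but the RefSeq gene table names as ribosomal protein loci, lay outside the name rule. There were 24 such probes with 20 names, of which 18 were tested. With percentile scaling, the one scaling tried for them, 7 were lower in cultured cells than in MH and 1 was higher, with a median log2 difference of -0.16 and a range from -1.06 to 0.63. The lowest, which the table names Rpl10l3, stood at -1.06 ± 0.14. Whether these probes read the named loci or the expressed parent genes was not tested.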
